A study of Mus with 10 samples.

Results

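Mast cells are tissue-resident immune cells that store ready-made mediators in granules and release them when surface receptors are engaged. This report follows 10 genes that describe such cells in mouse skin: the granule proteases Cpa3, Cma1, Tpsb2 and Mcpt4, the Mas-related receptors Mrgprb1 and Mrgprb2, the growth factor receptor gene Kit, the IgE receptor subunits Fcer1a and Ms4a2, and Hdc, which makes histamine. The genes were chosen by name, with earlier results of these data known. All 10 were found among the 22180 genes measured, each with a single probe set. Skin of female BALB/c mice aged 7 to 8 weeks was measured in 3 groups, in 10 arrays. In the 7-day group (4 arrays, labelled PUVA 7D) the labels give a gap of 7 days, and in the 3-day group (4 arrays, PUVA 3D) one of 3 days, after topical psoralen with 0.25 J/cm2 of UVA light given 2 times a week for 2 weeks. The 2 control arrays are labelled cont, and for controls the protocol gives no gap. PUVA combines psoralen, a light-activated DNA crosslinker, with UVA. The study set PUVA before imiquimod, which gives mice a psoriasis-like dermatitis. Whether the arrayed skin, controls included, had received imiquimod is not stated in the labels, nor whether each array came from a separate mouse. P-values therefore weigh differences against the spread among these arrays, part of which may be technical.

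As background, the proteases of connective tissue mast cells sit in the granule bound to the proteoglycan serglycin. KIT, the receptor for stem cell factor, keeps mast cells alive. The high-affinity IgE receptor joins an alpha chain (Fcer1a) to a beta chain (Ms4a2) and a gamma chain (Fcer1g), and crosslinking by antigen triggers degranulation. MRGPRB2 gives a second route, in which basic peptides and several drugs trigger mouse mast cells without IgE.

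Correlations between the arrays ran from 0.98762 to 0.99594, and the array medians over genes from 6.40 to 6.50 on the log2 scale. The 2 controls correlated at 0.99262. They were far apart in 14 genes of the growing hair follicle, with list means of 6.19 and 8.18 in control replicates 1 and 2. The same list had means of 5.25 to 5.42 in the 7-day arrays and 5.19 to 5.57 in the 3-day arrays. The part of this difference in the results below was not tested. In whole skin, a change in the number of mast cells and a change in RNA per mast cell cannot be told apart.

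The brightness of the 10 genes was read on each array, which cannot show that mast cells gave the signal. Of the 10 genes, 9 lay above the lower quartile of their array on all 10 arrays. Most genes of an array do so by the definition of that quartile. Cpa3 was brighter than 97.67% to 99.27% of genes on each array. Fcer1a was the exception, brighter than 3.46% to 6.24% of genes and below the lower quartile on all 10 arrays. Its values are given below, but no change of this gene is read from them. Counts, medians, pairs and means over the 10 genes include it. Of 5 markers of basophils, which share the IgE receptor, 1 lay below the lower quartile on every array, Mcpt8, their signature protease, and the other 4 did not. The list's summed log2 signal was 23.5 to 24.3 in the 7-day arrays, 23.9 to 24.4 in the 3-day arrays, and 23.9 and 23.5 in the controls. The basophils' part in the results was not tested.

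Among the proteases, 3 of 4 stood higher in 3-day than in control skin without overlap, and the fourth did not. Of all genes, 9.52% stood higher without overlap in this comparison and 7.89% lower. Cpa3 (probe set 17404337) encodes carboxypeptidase A3, which trims peptides from their C-terminal end. Its log2 signal was 10.67, 10.80, 10.91 and 10.67 in the 7-day arrays, 11.09, 10.91, 11.48 and 11.09 in the 3-day arrays, and 10.64 and 10.60 in the controls. All 4 arrays of the 3-day group lay above both controls, and so did all 4 of the 7-day group, by less. The 7-day and 3-day groups overlapped only at 10.91. The log2 change was 0.52 ± 0.14 (SE) in 3-day against control skin (1.44-fold, limma adjusted p = 0.312), 0.14 ± 0.14 in 7-day against control skin (adjusted p = 0.96) and -0.38 ± 0.11 in 7-day against 3-day skin (adjusted p = 0.356). Without 7-day replicate 3 the change in 7-day against control skin was 0.091. Without 3-day replicate 3 it was 0.41 in 3-day against control skin and -0.27 in 7-day against 3-day skin.

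Cma1 (probe set 17306937) encodes a chymase of connective tissue mast cells. Its log2 signal was 6.87, 7.03, 7.08 and 6.79 in the 7-day arrays, 7.28, 7.06, 7.73 and 7.13 in the 3-day arrays, and 6.74 and 6.67 in the controls. Every array of both PUVA groups lay above both controls. The log2 changes were 0.59 ± 0.17 in 3-day against control skin (1.51-fold, adjusted p = 0.319), 0.23 ± 0.17 in 7-day against control skin (adjusted p = 0.944) and -0.36 ± 0.14 in 7-day against 3-day skin (adjusted p = 0.46). Replicate 3 of the 3-day group stood highest. Without it the change was 0.45 in 3-day against control skin and -0.22 in 7-day against 3-day skin.

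Tpsb2 (probe set 17334666) encodes a tryptase, which is stored as a tetramer on heparin. The 7-day arrays held 7.85, 7.69, 8.00 and 7.48, the 3-day arrays 8.20, 7.87, 8.88 and 8.17, and the controls 7.50 and 7.57. All 3-day arrays lay above both controls, while 1 of the 7-day arrays lay below them. The change in 3-day against control skin, 0.75 ± 0.23 (1.68-fold, adjusted p = 0.375), had the largest estimate of the 10 genes. It was 0.22 ± 0.23 in 7-day against control skin (adjusted p = 0.964) and -0.53 ± 0.19 in 7-day against 3-day skin (adjusted p = 0.446). Without 3-day replicate 3 the change was 0.55 in 3-day against control skin and -0.33 in 7-day against 3-day skin. Without 7-day replicate 3 the difference between 7-day and control skin was 0.14. Tpsab1, the neighbouring tryptase gene, was not among the 10. In 3-day replicate 3 it stood at 6.19, against 4.47 to 4.94 on the other 9 arrays. Whether the probe sets tell these related tryptases, or the related chymases, apart was not analysed here.

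Mcpt4 (probe set 17306960) encodes another chymase of connective tissue mast cells and lies in the same protease cluster of chromosome 14 as Cma1, with 4 protein-coding genes between them in RefSeq GRCm38.p6. Its groups lay close together. Its signal was 8.51, 8.72, 8.61 and 8.48 in the 7-day arrays, 8.62, 8.68, 8.997 and 8.53 in the 3-day arrays, and 8.55 and 8.54 in the controls. The controls lay within the range of both PUVA groups. In 3-day against control skin the log2 change was 0.16 ± 0.12, with a 95% interval of -0.12 to 0.44 (adjusted p = 0.736), and without 3-day replicate 3 it was 0.065. In 7-day against control skin it was 0.032 ± 0.12, and in 7-day against 3-day skin -0.13 ± 0.10, which was -0.032 without 3-day replicate 3.

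**Figure D1:**
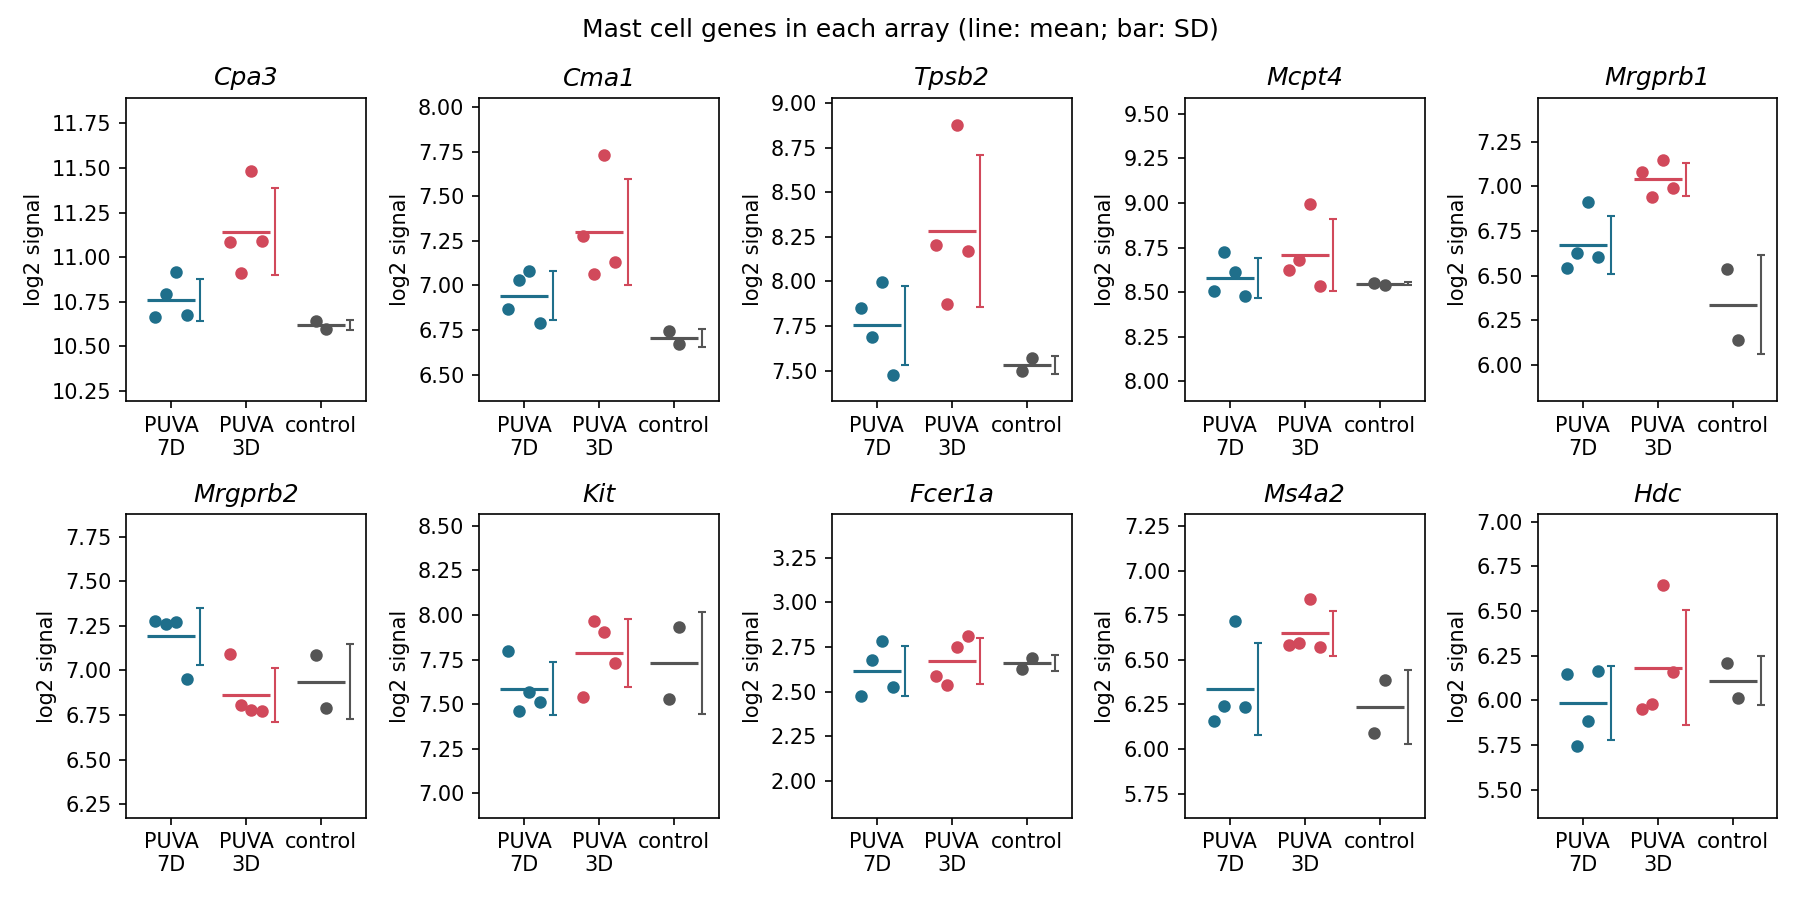
Log2 signal (vertical axes, each spanning the same width) of the 10 mast cell genes in 4 PUVA 7D, 4 PUVA 3D and 2 control arrays. Points are arrays, horizontal lines are group means and vertical bars are SDs. Cpa3, Cma1, Tpsb2, Mrgprb1 and Ms4a2 lie above both controls in all 4 PUVA 3D arrays, as do 9.52% of all genes. Mrgprb2 is highest in 3 of the PUVA 7D arrays.

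The 2 Mas-related receptors differed in where the 3-day group lay. Their genes lie near each other on chromosome 7, with 1 protein-coding gene between them in RefSeq GRCm38.p6. Mrgprb1 (probe set 17491354) encodes a receptor of this family that mouse mast cells express. Its log2 signal was 6.54, 6.63, 6.91 and 6.60 in the 7-day arrays, 7.08, 6.94, 7.15 and 6.99 in the 3-day arrays, and 6.54 and 6.14 in the controls. The 3-day arrays lay above every array of the other groups. Mrgprb1 was the 1 gene of the 10 whose 7-day and 3-day arrays did not overlap, beside 2.28% of all genes downward and 2.95% upward.

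The log2 change of Mrgprb1 was 0.70 ± 0.13 in 3-day against control skin (1.63-fold, 95% interval 0.41 to 0.995). Its adjusted p of 0.146 was the lowest of the 10 genes, and by unadjusted p it ranked 44 among the 22180 genes. The 2 controls differed by 0.40, and the estimate rests on them. Without control replicate 2 it was 0.50, and without control replicate 1 it was 0.90 with an adjusted p of 0.0256, where 182 genes of the array passed. In 7-day against control skin the change was 0.33 ± 0.13 (adjusted p = 0.808), with 0.14 and 0.53 without control replicates 2 and 1. In 7-day against 3-day skin it was -0.37 ± 0.11 (adjusted p = 0.342).

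Mrgprb2 (probe set 17491362), the receptor for basic secretagogues, had its lowest mean in the 3-day group, where Mrgprb1 had its highest. In both genes the 7-day mean lay above that of control. Mrgprb2 stood at 7.28, 7.26, 7.27 and 6.95 in the 7-day arrays, 7.09, 6.81, 6.78 and 6.77 in the 3-day arrays, and 7.09 and 6.79 in the controls. Of the 7-day arrays 3 lay above every other array, while the 3-day arrays spread over the range of the controls. The log2 change was -0.075 ± 0.13 in 3-day against control skin (adjusted p = 0.905), 0.25 ± 0.13 in 7-day against control skin (adjusted p = 0.887) and 0.33 ± 0.11 in 7-day against 3-day skin (adjusted p = 0.409). The change in 7-day against control skin was 0.10 without control replicate 2 and 0.40 without control replicate 1.

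Within each array, the log2 signal of Mrgprb1 minus that of Mrgprb2 was -0.73, -0.63, -0.36 and -0.35 in the 7-day group, -0.014, 0.13, 0.37 and 0.22 in the 3-day group, and -0.55 and -0.65 in control. The 3-day group stood apart from the other arrays in this difference, which was noticed in the data and is given as a description. Whether the 2 genes changed unequally was not tested, and the difference cannot tell which of them changed. A level of one probe set cannot be set against that of another. Whether the probe sets tell these and other related Mas-related receptor genes apart was not analysed here.

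**Figure D2:**
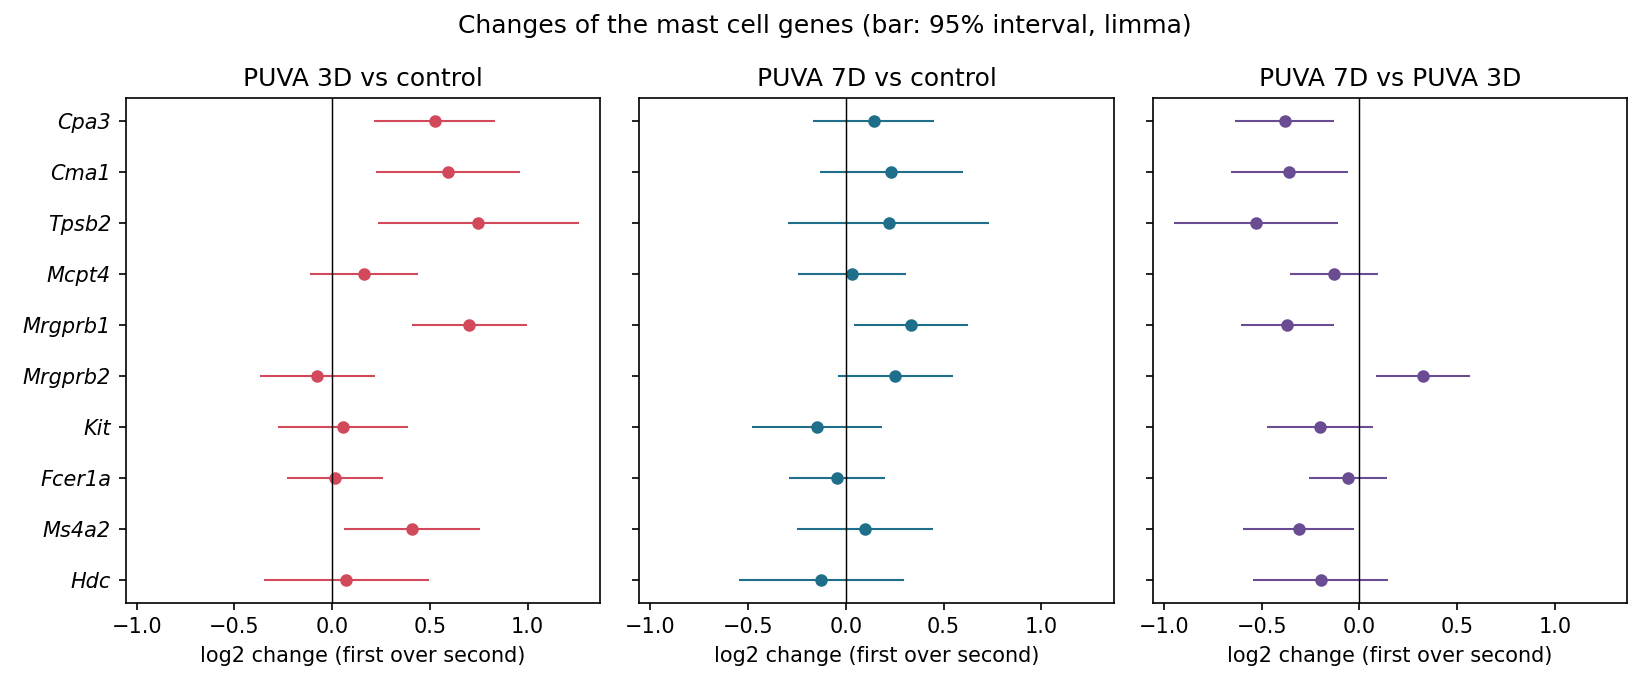
Log2 change (horizontal axes) of the 10 mast cell genes in 3 comparisons, first group over second. Points are limma estimates and bars their 95% intervals, unadjusted for the number of genes. In PUVA 3D vs control the intervals of Cpa3, Cma1, Tpsb2, Mrgprb1 and Ms4a2 lie above 0, and in PUVA 7D vs PUVA 3D the same 5 lie below 0 and that of Mrgprb2 above it.

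Of the IgE receptor chains, the beta chain gene Ms4a2 (probe set 17362986), which amplifies the receptor's signal, stood at 6.16, 6.24, 6.72 and 6.23 in the 7-day arrays, 6.58, 6.59, 6.84 and 6.57 in the 3-day arrays, and 6.09 and 6.38 in the controls. All 3-day arrays lay above both controls, and of the 7-day arrays replicate 3 alone did. The log2 change was 0.41 ± 0.16 in 3-day against control skin (1.33-fold, adjusted p = 0.459), with 0.26 and 0.56 without control replicates 1 and 2. It was 0.099 ± 0.16 in 7-day against control skin (adjusted p = 0.973) and -0.31 ± 0.13 in 7-day against 3-day skin (adjusted p = 0.484).

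The alpha chain gene Fcer1a (probe set 17229974), which binds IgE, held values of 2.47 to 2.78 in the 7-day arrays, 2.54 to 2.81 in the 3-day arrays, and 2.63 and 2.69 in the controls. All were dim, and the log2 changes were 0.013 ± 0.11 in 3-day against control skin, -0.043 ± 0.11 in 7-day against control skin and -0.057 ± 0.09 in 7-day against 3-day skin. The gamma chain gene Fcer1g, shared with other receptors and also active in macrophages and other myeloid cells, stood at 10.69, 10.25, 10.61 and 10.70 in the 7-day arrays, 10.96, 11.66, 10.87 and 10.97 in the 3-day arrays, and 10.42 and 10.52 in the controls. All 3-day arrays lay above all the others. The change was 0.65 ± 0.21 in 3-day against control skin (adjusted p = 0.393) and -0.55 ± 0.17 in 7-day against 3-day skin (adjusted p = 0.367). Its highest array was 3-day replicate 2, and the 4 proteases were highest in 3-day replicate 3.

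Kit (probe set 17438272) showed no order between the groups. It stood at 7.80, 7.46, 7.57 and 7.51 in the 7-day arrays, 7.54, 7.97, 7.90 and 7.73 in the 3-day arrays, and 7.53 and 7.93 in the controls. The 2 controls spanned most of the range of the other arrays. The log2 change was 0.054 ± 0.15 in 3-day against control skin (95% interval -0.28 to 0.39) and -0.15 ± 0.15 in 7-day against control skin, and each turned sign with 1 control left out. In 3-day against control skin it was -0.15 without control replicate 1, and in 7-day against control skin 0.056 without control replicate 2. In 7-day against 3-day skin it was -0.20 ± 0.12. Melanocytes also use KIT. Their 9 measured markers include the pigment gene Pmel. The list means were 5.40 to 5.66 in the 7-day arrays, 5.42 to 6.08 in the 3-day arrays, and 5.67 and 6.87 in the controls. The higher control value was in the control where Kit was higher. The PUVA arrays did not share this order. Among the 7-day arrays, replicate 1 had the highest Kit and the lowest list mean, 5.40. Among the 3-day arrays, Kit was highest in replicate 2 and the list mean in replicate 3. One marker of the 9, Gpr143, was below the lower quartile on every array. Control replicate 2, with the higher Kit and melanocyte list mean, also had the higher hair follicle list mean (8.18 against 6.19). The melanocytes' part in the Kit signal was not tested, and in the controls it cannot be told apart from the hair difference.

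Hdc (probe set 17391094), which encodes histidine decarboxylase, stood at 6.15, 5.74, 5.89 and 6.17 in the 7-day arrays, 5.95, 5.98, 6.64 and 6.16 in the 3-day arrays, and 6.21 and 6.01 in the controls. Apart from 3-day replicate 3 the groups lay over each other. The log2 change was 0.073 ± 0.19 in 3-day against control skin (95% interval -0.35 to 0.50), and -0.080 without that replicate. It was -0.12 ± 0.19 in 7-day against control skin, with -0.028 and -0.22 without control replicates 1 and 2. It was -0.20 ± 0.16 in 7-day against 3-day skin, and -0.045 without 3-day replicate 3.

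Counted over the 10 genes, 0 passed an adjusted p of 0.05 (limma, Benjamini-Hochberg over 22180 genes) in any comparison. The share of all genes that passed was 0.00451% in 3-day against control skin, 0% in 7-day against control skin and 0.00902% in 7-day against 3-day skin. At an unadjusted p under 0.05, 5 of 10 were higher and 0 lower in 3-day against control skin, where 5.67% of all genes were higher and 4.07% lower. The 5 were Cpa3, Cma1, Tpsb2, Mrgprb1 and Ms4a2. The same 5 had arrays without overlap, where 9.52% of all genes were so in the upward and 7.89% in the downward direction. The median log2 change of the 10 was 0.29, against 0.0023 over all genes.

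In 7-day against control skin 1 of the 10, Mrgprb1, was higher and 0 lower at an unadjusted p under 0.05, beside 3.21% and 2.68% of all genes. This count lay between 0 and 2 when single arrays were left out. Arrays without overlap were found for 3 of 10 upward (Cpa3, Cma1 and Mrgprb1) and 0 downward, beside 8.56% and 5.85% of all genes. The median was 0.12, against 0.015 over all genes, and it was 0.057 without 7-day replicate 3.

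In 7-day against 3-day skin 5 of 10 were lower and 1 higher at an unadjusted p under 0.05, beside 4.43% and 5.33% of all genes. The 5 were again Cpa3, Cma1, Tpsb2, Mrgprb1 and Ms4a2, and Mrgprb2 was the 1 in the other direction. The 6 in all became 3 without 7-day replicate 4 and 7 without 3-day replicate 1. Arrays without overlap were found for 1 of 10 downward (Mrgprb1) and 0 upward, beside 2.28% and 2.95% of all genes. The median was -0.26, against 0.0095 over all genes. The 3 comparisons share arrays, so that a high 3-day group enters both the first and the third. An exact permutation test over the arrays, two-sided, cannot go below 0.0667 with 4 arrays against 2. In 3-day against control skin Cpa3, Mrgprb1 and Ms4a2 reached that value, and Cma1 and Tpsb2 had an exact permutation p of 0.133. With 4 against 4 the test cannot go below 0.0286, the exact p of Mrgprb1 in 7-day against 3-day skin. There Cpa3, Cma1, Tpsb2 and Mrgprb2 had an exact permutation p of 0.0571, and Ms4a2 one of 0.114. Many other genes also reach these lowest values. After adjustment over all genes, the smallest exact permutation p was 0.732 in 3-day against control skin and 0.546 in 7-day against 3-day skin.

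**Figure D3:**
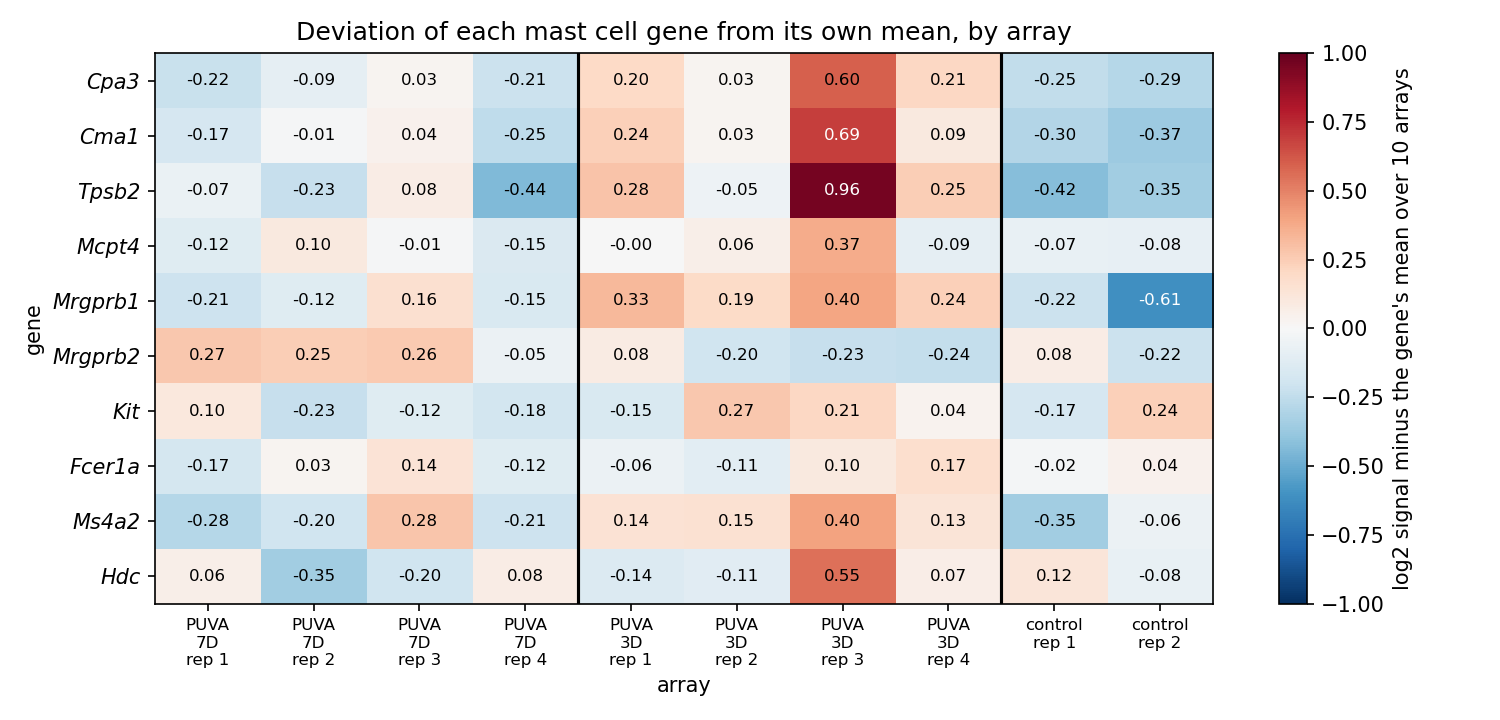
Log2 signal of each mast cell gene minus its own mean over the 10 arrays (colour and printed value), with genes in rows and arrays in columns. PUVA 3D replicate 3 holds the highest deviations of Cpa3 (0.60), Cma1 (0.69) and Tpsb2 (0.96), and Mrgprb2 is below its mean there.

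The genes varied together in part, over arrays that share their group and so are not 10 free points. Of 45 pairs of the 10 genes, 35 had a Pearson r above 0 over the 10 arrays and 8 had one above 0.8, with a range from -0.645 to 0.979. The tightest group was Cpa3, Cma1 and Tpsb2, whose pairs had r of 0.959 to 0.979, and 0.911 to 0.963 with the group means removed. The chymases Cma1 and Mcpt4 had r of 0.845, and 0.876 with the group means removed, although the groups of Mcpt4 differed little. Mrgprb1 followed Cpa3 at 0.872, and at 0.609 with the group means removed. Mrgprb2 was below 0 against each of the other 9 genes, from -0.129 with Mrgprb1 to -0.645 with Kit. Its r with Cpa3 was -0.364, and 0.041 with the group means removed. With Mrgprb1 it was 0.48 after that step.

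One array weighs on this. Of the 10 genes, 7 were highest within the 3-day group in replicate 3, and 6 within the 7-day group in replicate 3. The share of all genes that were highest in these arrays was not counted. Without 3-day replicate 3 the median log2 change of the 10 in 3-day against control skin was 0.21, the lowest value with 1 array left out, and without control replicate 2 it was 0.38, the highest. In 7-day against 3-day skin the median ran from -0.31 to -0.19 over arrays left out.

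Gene lists around the mast cell were read beside the 10 genes. In none of them did a gene pass the adjusted p. In 3-day against control skin, 5 of 14 measured genes of IgE receptor signalling were higher at an unadjusted p under 0.05 and 0 lower. Over all genes 5.67% were higher and 4.07% lower at that level. The median log2 change of the 14 was 0.24, against 0.0023 over all genes. The adaptor gene Lcp2 had 0.63 ± 0.24 and the kinase gene Fyn 0.31 ± 0.12. Such kinases and adaptors serve many immune cells. Of 13 genes of the granule and its mediators, 4 were higher and 0 lower, with a median of 0.27. Srgn, which encodes serglycin, had 0.34 ± 0.09, the leukotriene C4 synthase gene Ltc4s 0.56 ± 0.19, and Slc18a2, which loads amines into granules, 0.30 ± 0.13. Srgn and Ltc4s were highest in 3-day replicate 2 (9.08 and 8.06), as was the mean of the macrophage markers (10.57). Slc18a2 was highest in 3-day replicate 3 (6.07), as the proteases were. Which cells gave these changes was not tested.

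Of 12 genes of mast cell growth and regulation, 0 were higher or lower at that level (limma), with a median of 0.12. Gata2, a transcription factor of the lineage, had 0.32 ± 0.15, Mitf 0.16 ± 0.11, and Kitl, the ligand of KIT, 0.0032 ± 0.11. Of 10 other proteases, 7 were below the lower quartile on every array, among them Mcpt1 and Mcpt2 of mucosal mast cells. Gzmb, the 1 protease of the list past an unadjusted p of 0.05, was among these dim genes. The 6 genes of histamine receptors and breakdown held 0 past that level (limma) and a median of 0.075.

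At an unadjusted p under 0.05 in 7-day against 3-day skin, 3 of 14 signalling and 3 of 13 granule genes were lower. In both lists 0 were higher, and over all genes 4.43% were lower and 5.33% higher at that level. The list medians were -0.14 and -0.19. Fcer1g was described above, and the kinase gene Btk had -0.42 ± 0.18. Slc18a2 had -0.37 ± 0.11, Cd63, a granule membrane protein gene, -0.21 ± 0.08 and Srgn -0.19 ± 0.07. In 7-day against control skin 1 gene of the 2 lists together was past that level, beside 3.21% of all genes higher and 2.68% lower. A count of 1 is near that share and is not read as a result about these lists. The gene was the prostaglandin synthase gene Ptgs2, at 0.90 ± 0.35 (limma adjusted p = 0.808), with 6.57 and 6.02 in the controls. The list medians were 0.08 and 0.066.

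**Figure D4:**
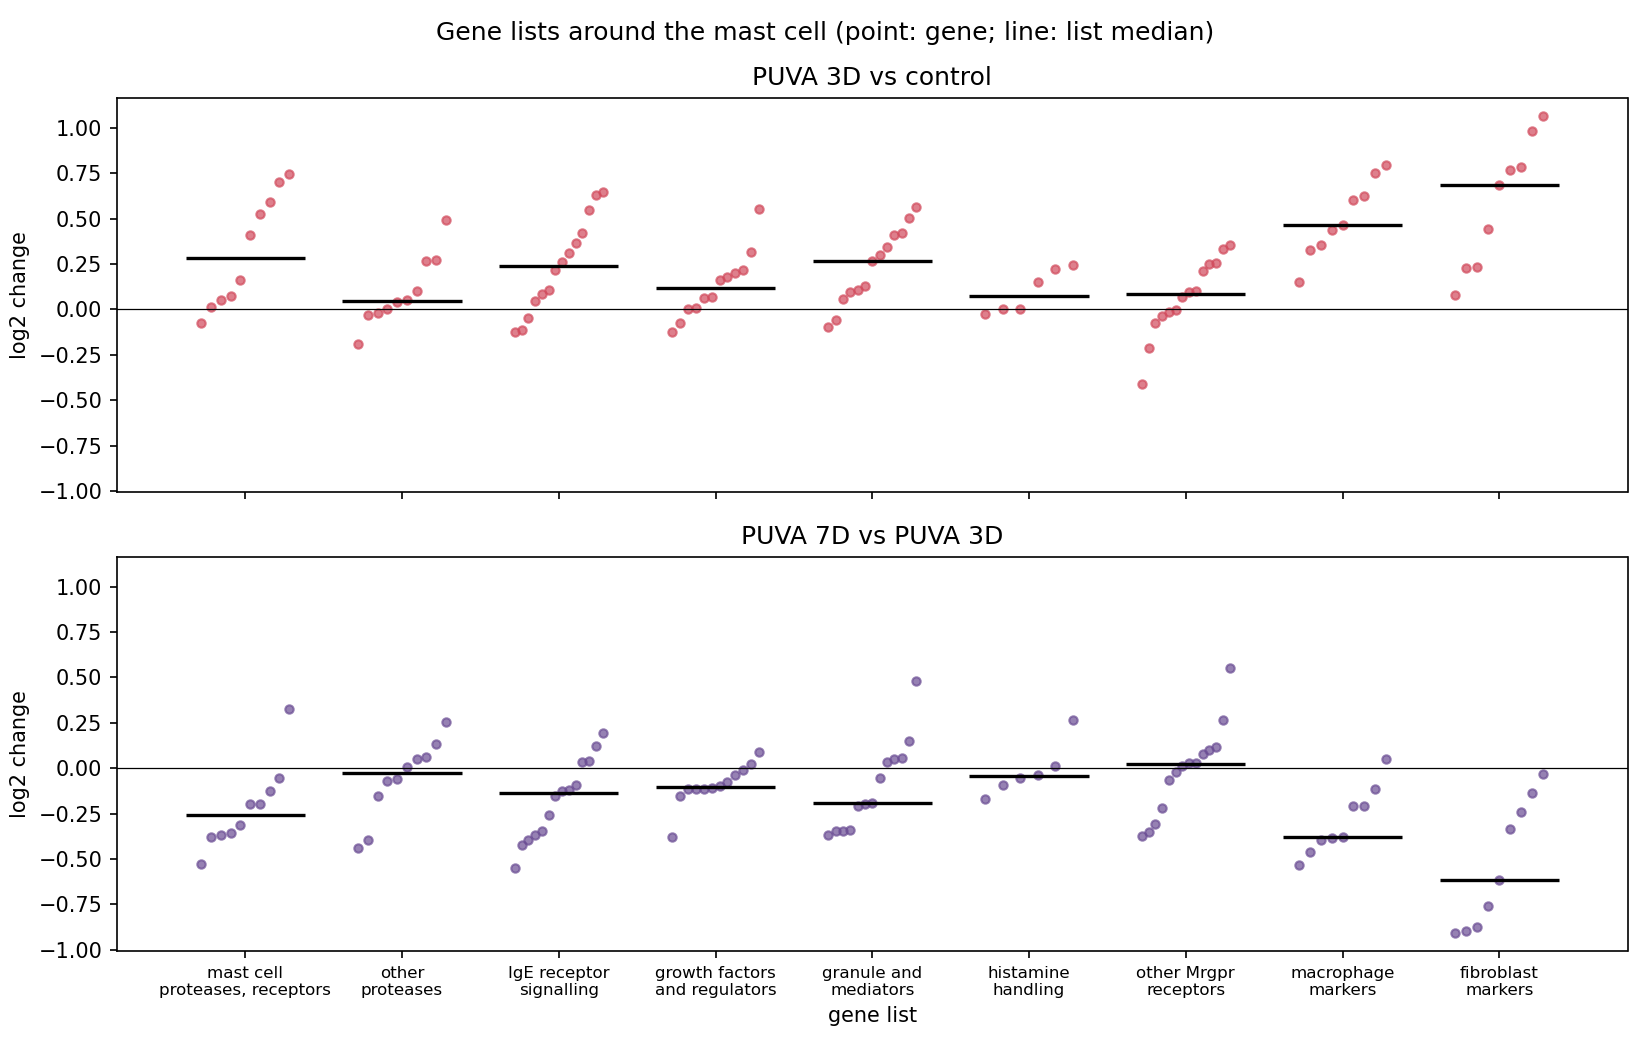
Log2 change (vertical axes) in PUVA 3D vs control (upper panel) and PUVA 7D vs PUVA 3D (lower panel) for the 10 mast cell genes, 6 lists around the mast cell and the markers of macrophages and fibroblasts. Points are genes in order of their change within a list and lines are list medians. Macrophage and fibroblast markers have medians of 0.47 and 0.69 in the upper panel and of -0.38 and -0.62 in the lower one, beside 0.29 and -0.26 for the mast cell genes.

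Markers of some other cells lay in the same direction as the 5 mast cell genes. At an unadjusted p under 0.05, 5.67% of all genes were higher in 3-day against control skin. Of 9 macrophage markers, all lay above 0 there and 5 at that level. Their summed log2 signal was 86.6 to 90.7 in the 7-day arrays, 87.5 to 95.1 in the 3-day arrays, and 85.6 and 87.3 in the controls. Of 9 fibroblast markers, all lay above 0 and 6 at that level, with sums of 91.9 to 95.5 in the 7-day arrays, 96.0 to 100.6 in the 3-day arrays, and 91.4 and 95.4 in the controls. None of the markers of either list was below the lower quartile on every array. Their part in the mast cell results was not tested.

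Schwann cell markers had the same order. All 4 measured lay above 0 and at an unadjusted p under 0.05 (limma) in 3-day against control skin. Over all genes 5.67% were higher and 4.07% lower at that level. The Schwann cell medians were 0.35 in that comparison and -0.26 in 7-day against 3-day skin. All 7 endothelial markers lay above 0, with 2 at that level and medians of 0.16 and -0.083. The remaining lists had lower medians than these in 3-day against control skin, given here before those in 7-day against 3-day skin. Langerhans and dendritic cell markers (8) had 0.11 and -0.058, neutrophil markers (7) 0.055 and -0.19, basophil markers (5) 0.04 and -0.07, and T cell markers (5) -0.074 and 0.14. Markers of basal keratinocytes (6) had -0.10 and 0.12, of adipocytes (7) -0.079 and 0.038, of skeletal muscle (7) -0.11 and 0.078 and of melanocytes (9) -0.62 and -0.14. Genes of the growing hair (14) had -1.05 and 0.036. Over all genes the medians were 0.0023 and 0.0095.

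The genes whose pattern over the 10 arrays was most like the mean of the 10 mast cell genes were sought among 5986 other genes with an SD of at least 0.2. The 8 with the highest Pearson r were Lix1l, Cyp11a1, Layn, Mgp, Pde5a, Gm6999, Fcgbp and Platr7, with r from 0.879 to 0.901. Cyp11a1, which starts steroid synthesis from cholesterol, had a log2 change of 0.51 ± 0.18 in 3-day against control skin (adjusted p = 0.44). Mgp, a matrix protein that restrains calcification, had 0.42 ± 0.18 (adjusted p = 0.494), and Layn, a hyaluronan receptor gene, 0.44 ± 0.11 (adjusted p = 0.298). The high r was picked from many genes, rests on the same groups and arrays, and carries no test.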

How the data were processed

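The authors deposited 41345 probe sets with a value for each array, read here as log2 signal from its range. Log base, software and normalization: not given in the sources used here. Extraction used a miRNeasy kit and labelling the WT PLUS kit of Affymetrix, per the labels' protocols. The platform annotation listed 23521 probe sets with 1 symbol, 1814 with several and 16010 unnamed ones. Genes with several probe sets kept the one with the highest mean, which gave 22180 genes with no filter. The number of arrays limits the precision.

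A linear model of the 3 groups on all 10 arrays was fitted in limma 3.58.1 (R 4.3.3, moderated two-sided tests, 7 residual and 3.514 prior degrees of freedom) with Benjamini-Hochberg adjustment over all genes. One spread per gene is shared by all groups, so that errors against control can be too small where the 2 controls differ more than other arrays. SE follows ± for log2 changes. The script was tested on simulated data.

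Members, lists, alternatives and the naming rule were chosen with earlier results of these data known. All 10 genes are named. Of each other list up to 3 genes with the smallest p under 0.05 in a comparison may be named, with Tpsab1, Fcer1g, Kitl, Gata2, Mitf and Srgn always allowed, and the 8 genes most like the mean of the 10. Mcpt8, Mcpt1, Mcpt2 and Gpr143 were named outside the rule, for their dim signal and after it was seen. Of 186 listed symbols, 174 were measured. Lists of melanocyte, basophil, macrophage, dendritic, neutrophil, T cell, fibroblast, endothelial, Schwann, basal keratinocyte, hair, adipocyte and muscle genes served as markers of other cells.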

Additional observations from a re-analysis of the deposited data

Results flagged for a closer look

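In 20 groups of 4 arrays (10 genes in 2 PUVA groups), 4 held an array whose gap to its nearest neighbour took most of the group's range. Chance alone gives about 1 in 20 such groups, and the genes share their arrays. Mrgprb2 stood at 7.09 in 3-day replicate 1, above the 6.77 to 6.81 of the other 3 arrays, and at 6.95 in 7-day replicate 4, below the 7.26 to 7.28 of the others. Both arrays lie on the side of the other PUVA group. Ms4a2 stood at 6.84 in 3-day replicate 3, above 6.57 to 6.59, and at 6.72 in 7-day replicate 3, above 6.16 to 6.24.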

How the results depend on the processing

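Probe set choice, a filter on the lowest 30% of genes, quantile normalization, centring, trend and robust settings, array weights, fits of only the groups compared and an exact permutation test were tried, and each of the 10 arrays was left out. Of 537 values of single mast cell genes, 522 kept their direction and their side of the threshold. The 1 new call, Mrgprb1 without control replicate 1 in 3-day against control skin, is given above, so that 0 to 1 of the 10 genes were called there with arrays left out. With arrays left out, the sign turned for genes near 0. In 3-day against control skin Mrgprb2 ran from -0.22 to 0.073, Kit from -0.15 to 0.26, Fcer1a from -0.034 to 0.058 and Hdc from -0.080 to 0.17. Fcer1a was -0.016 with quantile normalization. In 7-day against control skin Ms4a2 ran from -0.048 to 0.25, Kit from -0.35 to 0.056, Fcer1a from -0.099 to 0.0037 and Mcpt4 from -0.015 to 0.066. For these turns the cause was not tested. Mast cell genes at an unadjusted p under 0.05 in 7-day against control skin numbered 1, against 0 in a fit of only these groups and 0 to 2 with arrays left out, and in 7-day against 3-day skin 6, against 3 to 7. Over all genes, calls in 3-day against control skin numbered 1, against 2 with centring, 3 with array weights and 1 to 182 with arrays left out. Calls in 7-day against control skin numbered 0, against 0 to 217, and 182 and 217 came without control replicate 1. In 7-day against 3-day skin there were 2, against 1 with the filter or only the groups compared, 4 with centring, 6 with array weights and 0 to 10 with arrays left out. A fit with 1 control takes its spread from the PUVA groups. No paired analysis was possible because the labels give no replicate numbers that groups share. Signal over background was not analysed here, which limits the dim Fcer1a above all.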

Other observations

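Another receptor of the Mrgprb family, Mrgprb3, which was not among the 10 genes, had its lowest mean in the 3-day group, as Mrgprb2 had. It stood at 9.18, 9.57, 9.05 and 8.97 in the 7-day arrays, 8.97, 8.50, 8.49 and 8.63 in the 3-day arrays, and 9.34 and 8.77 in the controls. The log2 change was 0.55 ± 0.17 in 7-day against 3-day skin (limma adjusted p = 0.36) and -0.41 ± 0.20 in 3-day against control skin (adjusted p = 0.554). Whether the probe sets tell Mrgprb2 and Mrgprb3 apart was not analysed here. Of the 14 other Mas-related receptor genes measured, 7 were below the lower quartile on every array. Mrgpre and Mrgprf had their highest mean in the 3-day group, as Mrgprb1 had, but unlike Mrgprb1 their 7-day mean lay below that of control. Their log2 changes were -0.35 ± 0.06 (adjusted p = 0.161) and -0.37 ± 0.11 (adjusted p = 0.367) in 7-day against 3-day skin.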
